A study of Mus musculus with 8 samples.

Results

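The kinetochore is the protein structure that is built on the centromere of each chromosome and holds the microtubules of the mitotic spindle. The genes described here encode its structural parts and the factors that mark and protect the centromere. They are 42 genes of the CENP, MIS12, NDC80, KNL1, SKA and RZZ complexes, with the CENP-A loading factors, the shugoshins and BUB3. They were matched by name, as the rows of the count table whose Ensembl ID carries one of these symbols in GENCODE M21. All 42 were found among the 21859 gene IDs of the table, and 40 of them passed the filter on low counts. RNA was sequenced from 8 cultures of PER-M60, which the labels describe as a mouse leukaemia cell line. In 4 cultures the cells grew in control medium, and in the other 4 in osteoclast-conditioned medium. Osteoclasts are the cells that resorb bone, and conditioned medium is medium in which other cells have been kept. All cultures are of 1 cell line and carry no other treatment in the labels, which give neither the time of exposure nor how the medium was prepared. Nothing in the labels says that the 4 cultures of a medium were started separately, so p-values measure the spread between these samples, which may be technical.

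The centromere is defined by nucleosomes that hold CENP-A, a variant of histone H3, in place of the usual histone. A group of inner proteins, the constitutive centromere-associated network, binds these nucleosomes throughout the cell cycle. In mitosis it carries the outer KMN network (KNL1, MIS12 and NDC80 complexes), whose NDC80 complex grips the microtubule. Many of these genes are transcribed mainly in the later part of the cell cycle, so their level in bulk RNA follows both the share of dividing cells and the RNA per cell. Fewer dividing cells and less RNA per cell cannot be told apart in these bulk samples.

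Total counts per culture ran from 15391754 to 21637966, and the 42 genes together took between 47660 and 66651 counts per culture. The B-lineage genes Cd79a and Pax5 were abundant in every culture, at 515 ± 9.28 and 1206 ± 47.7 normalised CPM in control medium (CPM, read counts relative to library depth after TMM scaling; SD, n = 4). Both were higher in osteoclast-conditioned medium, with log2 fold changes of 0.15 for Cd79a and 0.13 for Pax5. Of 12 macrophage and osteoclast markers, 9 fell below the filter and Ocstamp and Dcstamp had 0 counts in all 8 cultures. The summed level of the 12 was 40.2 to 41.9 normalised CPM in control medium and 39.7 to 44.8 in osteoclast-conditioned medium. Among the 3 that were tested, Itgb3 was lower, Lyz2 was higher and Acp5 did not pass. All 5 T-lineage markers fell below the filter. No batch of sequencing or of library preparation is named, and no within-batch values can be given.

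Kinetochore genes that passed the test were lower in osteoclast-conditioned medium, by small amounts, with the exception of Ndc80. With edgeR's quasi-likelihood test, fitted on the 10729 genes that passed the filter and adjusted over all of them, 20 of the 40 tested genes fell, 1 rose and 19 did not pass an adjusted p of 0.05. Among all tested genes, 30.5% passed by the same rule, 14.8% lower and 15.7% higher. The median log2 fold change (osteoclast-conditioned over control) was -0.11 for the 40 genes and -0.01 for all tested genes, and 33 of the 40 values were negative. Cultures of the media did not overlap, with lower values in osteoclast-conditioned medium, for 16 of the 40, and with higher values for 1. Of all tested genes, 28.2% were separated, 12.9% lower and 15.2% higher. Of the 20 genes that fell, 19 fell by less than 20%. The number called lower was 13 without control replicate 3, 13 with DESeq2 and 12 at an adjusted p under 0.01.

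**Figure D1:**
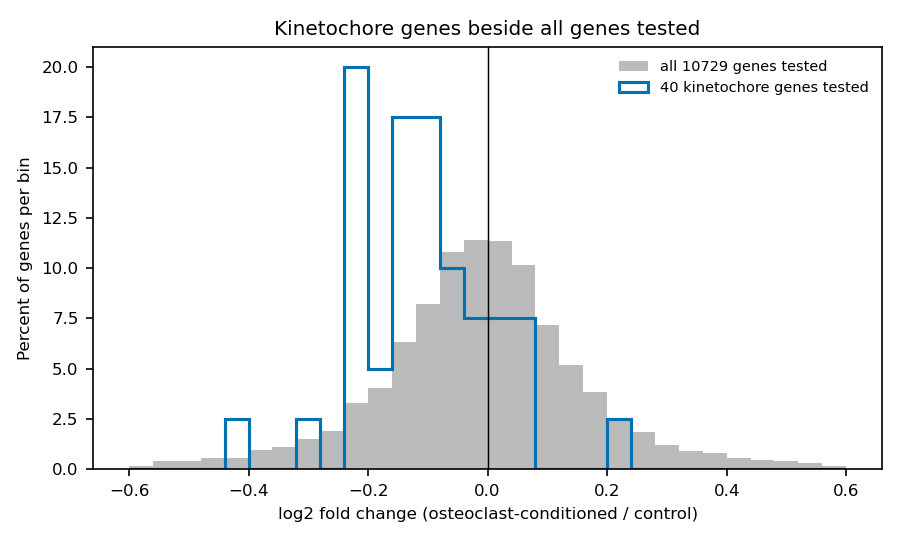
Percent of genes per bin of 0.04 in log2 fold change (osteoclast-conditioned over control medium), for all 10729 genes tested (grey) and the 40 kinetochore genes tested (blue line); 184 genes lie beyond 0.6 in either direction and are not drawn. Of the 40 kinetochore genes, 33 lie to the left of 0 and 7 to the right, with a median of -0.11.

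The summed level of the 42 genes was 3027, 3075, 3123 and 3056 normalised CPM in control replicates 1 to 4. In osteoclast-conditioned replicates 1 to 4 it was 2809, 2854, 2824 and 2839. The groups did not overlap, and the means were 3070 ± 40.2 and 2831 ± 19.4 (SD, n = 4 each). Most genes in 2 lists of proliferation genes were also lower, where 14.8% of all tested genes fell. In a list of 12 G1/S genes, 8 fell and 0 rose, and the summed level was 3938 to 4217 normalised CPM in control medium and 3653 to 3852 in osteoclast-conditioned medium. In a list of 10 G2/M genes, 8 fell and 0 rose, with a summed level of 4629 to 5018 against 4602 to 4824. The G2/M sums overlapped between media. The 2 genes of this list that did not pass were Mki67 (log2 fold change 0.08, SE 0.06) and Top2a (-0.05, SE 0.03). They stood at 1703 and 1164 normalised CPM in control medium. The part of the cell cycle composition in the kinetochore values was not tested.

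**Figure D2:**
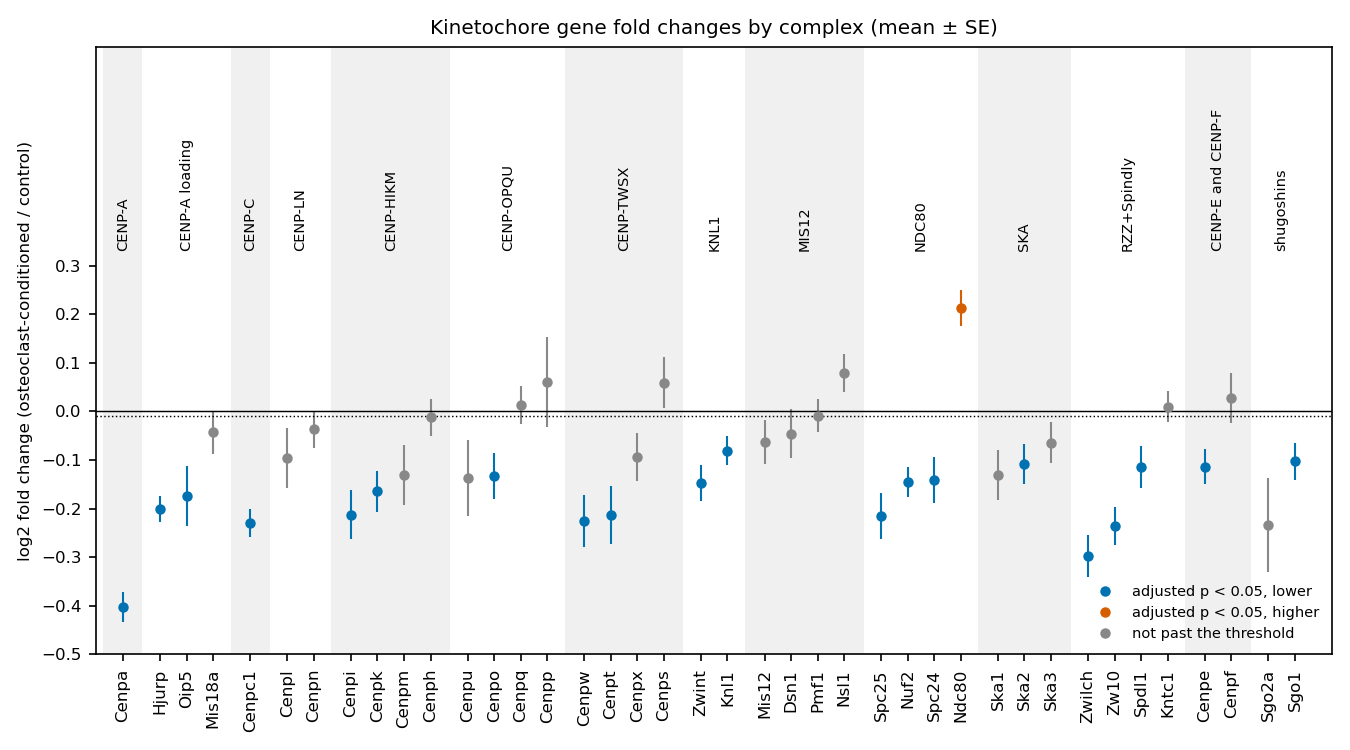
Log2 fold change (osteoclast-conditioned over control medium, 4 cultures each) of the 40 tested kinetochore genes, ± SE, grouped by complex; blue points fell and the orange point rose at an adjusted p under 0.05, grey points did not pass, and the dotted line is the median of all tested genes. Cenpa, at -0.40, lies lowest, and Ndc80, at 0.21, lies above the other members of its own complex.

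The largest fall was at the base of the structure. Cenpa (ENSMUSG00000029177, chromosome 5, 30666777 to 30674830, GRCm38) encodes the histone variant itself. It stood at 162, 168, 155 and 153 normalised CPM in control replicates 1 to 4, and at 119.7, 120.35, 119.7 and 123 in osteoclast-conditioned replicates 1 to 4. The 4 osteoclast-conditioned cultures lay close together and all below the lowest control. Cenpa fell by 24.3% (log2 fold change -0.40, SE 0.03, edgeR adjusted p = 4.07e-11), from 159 ± 6.58 to 121 ± 1.56 (SD, n = 4 each). Cenpb, whose protein binds a DNA motif of the satellite repeats, had 0 counts in all 8 cultures.

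New CENP-A is deposited by the chaperone HJURP, which is brought to the centromere by the MIS18 complex of Mis18a and Oip5. Hjurp (ENSMUSG00000044783, chromosome 1, 88262471 to 88277633) was the most abundant kinetochore gene per exon length. Its level was 546, 519, 541 and 531 normalised CPM in control replicates 1 to 4 and 458, 463, 456 and 483 in osteoclast-conditioned replicates 1 to 4. No osteoclast-conditioned culture reached the lowest control. Hjurp fell by 13.0% (log2 fold change -0.20, SE 0.03, edgeR adjusted p = 8.51e-07). Oip5 fell by 11.3% (adjusted p = 0.0309), and this call was lost in 5 of 16 alternatives, among them DESeq2. Oip5 shares 9.67% of its exon bases with Nusap1 on the opposite strand. Mis18a, at -0.04 on the log2 scale (SE 0.04), did not pass.

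CENP-C links the CENP-A nucleosome to the MIS12 complex. Cenpc1 (ENSMUSG00000029253, chromosome 5, 86012024 to 86065583) had the tightest control values of the 40 tested genes, relative to the mean, at 149.5, 149.97, 150.1 and 148.8 normalised CPM in replicates 1 to 4. The osteoclast-conditioned values were 124, 127, 128 and 131, all lower. Cenpc1 fell by 14.7% (log2 fold change -0.23, SE 0.03, edgeR adjusted p = 3.84e-07). In the whole inner network of 15 genes, Cenpc1 included, 6 fell and 0 rose, against 14.8% lower and 15.7% higher among all tested genes. The summed level of the 15 was 630 ± 5.07 normalised CPM in control cultures and 579.8 ± 3.69 in the others (SD, n = 4 each).

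Within the CENP-HIKM group, which joins the inner network to the outer one, Cenpi and Cenpk fell while Cenph and Cenpm did not pass. Cenpi (ENSMUSG00000031262, chromosome X, 134308084 to 134362639) was at 42.8, 38.8, 38.4 and 39.3 normalised CPM in control replicates 1 to 4 and at 37.2, 34.0, 33.1 and 32.8 in osteoclast-conditioned replicates 1 to 4. Replicate 1 was highest in both media, and the groups did not overlap (log2 fold change -0.21, SE 0.05, edgeR adjusted p = 0.00152). Cenpk fell as well (log2 fold change -0.16). Cenpm had -0.13 (SE 0.06), and Cenph, at -0.01 (SE 0.04), was the flattest of the group.

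CENP-L and CENP-N contact the CENP-A nucleosome. Neither Cenpl (log2 fold change -0.10, SE 0.06) nor Cenpn (-0.04, SE 0.04) passed the test. Of the CENP-OPQU group, an accessory set that recruits mitotic kinase, only Cenpo passed the test. It was at 36.5, 36.95, 38.2 and 35.3 normalised CPM in control replicates 1 to 4 and at 35.2, 32.9, 33.2 and 32.6 in osteoclast-conditioned replicates 1 to 4. The gap between the lowest control and the highest osteoclast-conditioned culture was narrow (log2 fold change -0.13, SE 0.05, edgeR adjusted p = 0.0318), and the call was lost in 6 of 16 alternatives. Cenpo shares 22.5% of its exon bases with Adcy3 and Ptrhd1 on the opposite strand, and use of strand in counting is not given in the sources used here. Cenpu had -0.14 (SE 0.08) with no overlap between media, Cenpp 0.06 (SE 0.09) and Cenpq 0.01 (SE 0.04). Cenpu shares 26.7% of its exon bases with Primpol, Cenpp 12.6% with Aspn and Ippk, and Cenpq 3.65% with Mut, all on the opposite strand.

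CENP-T, CENP-W, CENP-S and CENP-X carry histone folds and form a second path from centromeric DNA to NDC80. Cenpw (ENSMUSG00000075266, chromosome 10, 30194569 to 30200560) was at 27.95, 27.7, 31.1 and 28.8 normalised CPM in control replicates 1 to 4 and at 24.7, 25.3, 25.2 and 23.4 in osteoclast-conditioned replicates 1 to 4. All 4 osteoclast-conditioned values were below the controls. Cenpw fell by 14.5% (log2 fold change -0.23, SE 0.05, edgeR adjusted p = 0.00180), and Cenpt, its direct partner, fell by 13.8%. Cenps (0.06, SE 0.05) and Cenpx (-0.09, SE 0.05), the other pair, did not pass. The raw count of Cenps was 0.899 ± 0.0612 of that of Cenpw in control cultures and 1.097 ± 0.0441 in the others (SD, n = 4 each), without overlap.

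In the outer KMN network of 10 genes, 5 fell and 1 rose, against 14.8% lower and 15.7% higher among all tested genes. KNL1 is the scaffold on which checkpoint proteins gather, and ZWINT is its partner. Zwint (ENSMUSG00000019923, chromosome 10, 72654845 to 72674964) was at 78.0, 78.8, 73.7 and 74.5 normalised CPM in control replicates 1 to 4 and at 68.1, 67.6, 71.5 and 68.6 in osteoclast-conditioned replicates 1 to 4. The groups did not overlap (log2 fold change -0.15, SE 0.04, edgeR adjusted p = 0.00251). Knl1 fell by 5.42%, the smallest fall called among the 42. Its groups overlapped and its call was lost in 8 of 16 alternatives. The 4 genes of the MIS12 complex, which joins CENP-C to the rest of the network, did not pass: Mis12 had -0.06 (SE 0.05), Dsn1 -0.05 (SE 0.05), Pmf1 -0.01 (SE 0.03) and Nsl1 0.08 (SE 0.04). Their summed level was 245 ± 7.79 normalised CPM in control cultures and 244.9 ± 2.52 in the others (SD, n = 4 each).

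The NDC80 complex has 4 subunits, and its genes moved in opposite directions. NDC80 and NUF2 form the end that binds the microtubule, and SPC24 and SPC25 the end that binds MIS12 and CENP-T. Ndc80 (ENSMUSG00000024056, chromosome 17, 71496100 to 71526857) was at 68.8, 71.8, 72.6 and 70.3 normalised CPM in control replicates 1 to 4 and at 79.4, 87.4, 81.9 and 80.4 in osteoclast-conditioned replicates 1 to 4. Every osteoclast-conditioned culture was above every control. Ndc80 rose by 16.0% (log2 fold change 0.21, SE 0.04, edgeR adjusted p = 4.53e-05) and was the 1 gene of the 42 that rose. Among its partners, Nuf2 fell by 9.60% (adjusted p = 0.000578). Spc24 fell by 9.30% (adjusted p = 0.0234), and Spc25 fell by 13.9% (adjusted p = 0.000656). The calls of Ndc80, Nuf2 and Spc25 held in all 16 alternatives, and that of Spc24 was lost in 5. None of the 4 genes shares exon bases with another annotated gene.

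The ratio of raw counts of a pair of genes within a culture does not depend on scaling, and it showed the same shift. The pairs were chosen with their values in view, so the ratios are descriptions with no test. The count of Ndc80 was 0.571, 0.579, 0.568 and 0.568 of that of Nuf2 in control replicates 1 to 4. In osteoclast-conditioned replicates 1 to 4 it was 0.699, 0.761, 0.741 and 0.735. The control values spanned a far narrower range than the distance to the lowest osteoclast-conditioned value. Against Spc25 the count of Ndc80 was 1.51 ± 0.0609 in control cultures and 2.04 ± 0.0290 in the others, and against Spc24 it was 2.02 ± 0.0868 and 2.58 ± 0.0992 (SD, n = 4 each). Between Nuf2 and Spc25, which both fell, the ratio was 2.65 ± 0.114 and 2.78 ± 0.102, and the cultures overlapped. Across the 12 complexes with at least 2 tested members, the ratio of the member of highest to that of lowest fold change was separated between media in 5. Picking the extremes of a complex favours such separation, and the share among other gene pairs was not examined.

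**Figure D3:**
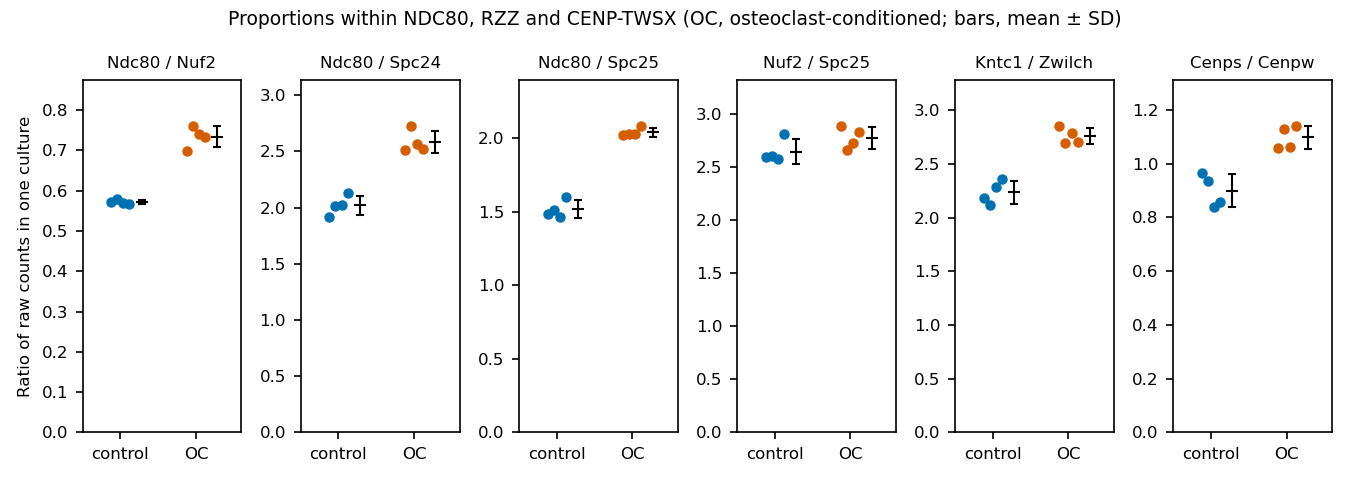
Ratio of raw counts of gene pairs within each culture, for control (blue) and osteoclast-conditioned (orange) medium, with the mean ± SD of 4 cultures beside the points and each vertical axis starting at 0. The ratios of Ndc80 to its 3 partners are higher in all osteoclast-conditioned cultures, while the ratio of Nuf2 to Spc25 overlaps between media.

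The SKA complex tracks microtubule ends beside NDC80. Of its 3 genes only Ska2 passed, with 63.3, 69.2, 71.7 and 67.1 normalised CPM in control replicates 1 to 4 and 65.9, 61.4, 61.1 and 63.2 in osteoclast-conditioned replicates 1 to 4. Control replicate 1 lay inside the range of the other medium. The log2 fold change was -0.11 (SE 0.04, edgeR adjusted p = 0.0435), and the call was lost in 9 of 16 alternatives, among them DESeq2 and limma-voom. Ska2 shares 10.1% of its exon bases with Gm11491, an antisense gene. Ska1 had -0.13 (SE 0.05, adjusted p = 0.0539) and Ska3 -0.06 (SE 0.04).

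The RZZ complex (ROD, ZW10 and ZWILCH, with ROD encoded by Kntc1) forms the outer corona of kinetochores without microtubules and recruits dynein through Spindly. Zwilch (ENSMUSG00000032400, chromosome 9, 64137144 to 64173104) was at 48.4, 47.5, 47.3 and 45.1 normalised CPM in control replicates 1 to 4 and at 36.7, 38.2, 38.7 and 39.8 in osteoclast-conditioned replicates 1 to 4. The media were well apart. Zwilch fell by 18.6%, next in size after Cenpa (log2 fold change -0.30, SE 0.04, edgeR adjusted p = 4.27e-06). Zwilch shares 5.93% of its exon bases with Lctl on the opposite strand.

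Zw10 (ENSMUSG00000032264, chromosome 9, 49055613 to 49078775) was at 64.0, 67.6, 62.5 and 62.1 normalised CPM in control replicates 1 to 4 and at 54.9, 53.2, 54.4 and 55.5 in osteoclast-conditioned replicates 1 to 4. It was lower in every osteoclast-conditioned culture and fell by 15.0% (log2 fold change -0.24, SE 0.04, edgeR adjusted p = 2.70e-05). Kntc1, the largest subunit, had 105 ± 3.19 and 106 ± 2.36 normalised CPM (log2 fold change 0.01, SE 0.03) and did not pass. The count of Kntc1 was 2.23 ± 0.107 times that of Zwilch in control cultures and 2.76 ± 0.0746 times in the others (SD, n = 4 each). Spdl1, which encodes Spindly, fell by 7.62% (adjusted p = 0.0433), with overlapping groups, and its call was lost in 9 of 16 alternatives, among them the fit without a filter and DESeq2.

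CENP-E, a kinesin, and CENP-F, a large coiled-coil protein, join the corona in mitosis. Cenpe was at 188, 189, 213 and 208 normalised CPM in control replicates 1 to 4 and at 183, 183, 189.7 and 182 in osteoclast-conditioned replicates 1 to 4. Control replicates 1 and 2 lay near the osteoclast-conditioned cultures, and the groups overlapped. The log2 fold change was -0.11 (SE 0.04, edgeR adjusted p = 0.0162), and the call was lost in 5 of the 8 fits that left out 1 culture. Cenpf had 207 ± 17.1 and 211 ± 7.53 normalised CPM and did not pass, with control values from 185 to 227.

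The shugoshins protect the cohesin that holds sister chromatids together at the centromere. Sgo1 was at 83.7, 93.2, 86.2 and 83.3 normalised CPM in control replicates 1 to 4 and at 81.3, 80.5, 78.0 and 83.6 in osteoclast-conditioned replicates 1 to 4. The groups overlapped by the highest osteoclast-conditioned culture, replicate 4 (log2 fold change -0.10, SE 0.04, edgeR adjusted p = 0.0404), and the call was lost in 7 of 16 alternatives. Sgo2a was the lowest of the tested genes per exon length, with 132 to 251 counts per culture, and had -0.23 (SE 0.10, adjusted p = 0.0653). It shares 35.0% of its exon bases with Kctd18 on the opposite strand, while its near copy Sgo2b had at most 1 count in any culture.

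**Figure D4:**
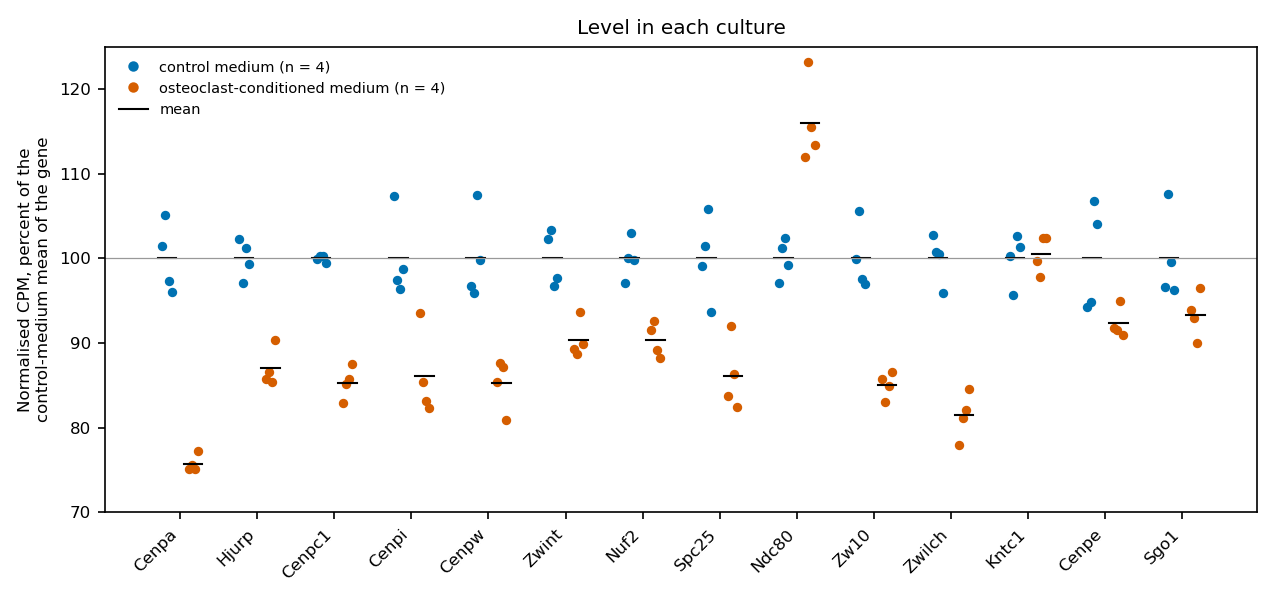
Normalised CPM of 14 kinetochore genes in each culture, as percent of the mean of the gene in control medium, with control cultures in blue, osteoclast-conditioned cultures in orange and black bars for the means (n = 4 each). The 4 osteoclast-conditioned cultures lie below all controls for Cenpa, Hjurp, Cenpc1, Zw10 and Zwilch and above them for Ndc80, and overlap with them for Kntc1, Cenpe and Sgo1.

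Bub3, a checkpoint adaptor bound to KNL1, had 0 counts in all cultures, as did Cenpb. Both lie inside a longer gene of the table: Cenpb (chromosome 2, 131175182 to 131180067) within the annotated span of Spef1, and Bub3 (chromosome 7, 131560222 to 131571895) within that of Fgfr2. Of 889 listed genes whose span lies inside another listed gene, 888 had 0 counts in every culture, against 31.1% of the genes that overlap none. A floor of 3 counts corresponds to 0.138 to 0.194 CPM across the cultures and covers counting error only. For Cenpb and Bub3 the 0 gives no measure of their level, and no comparison was made.

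Levels of different genes were compared per kilobase of annotated exon. In control medium Hjurp stood highest, at 64.1 ± 1.47 normalised CPM per kb, followed by Cenph at 34.8 ± 1.31, Cenpx at 32.9 ± 1.18, Cenpa at 27.2 ± 1.12 and Cenpc1 at 26.6 ± 0.101 (SD, n = 4). Cenph and Cenpx lay within the sum of their SDs of each other, as did Cenpa and Cenpc1, and Hjurp was above all of them by far more. The lowest were Cenpl at 3.55 ± 0.0798, Cenpp at 3.44 ± 0.481, Cenpu at 2.79 ± 0.147 and Sgo2a at 1.43 ± 0.157. In osteoclast-conditioned medium Hjurp, Cenph and Cenpx kept ranks 1 to 3, while Cenpa moved from rank 4 to rank 9, at 20.6 ± 0.267. Within NDC80 the order in control medium was Nuf2 (19.6 ± 0.469), Spc25 (14.7 ± 0.744), Spc24 (13.6 ± 0.546) and Ndc80 (10.9 ± 0.259), with Spc25 and Spc24 within the sum of their SDs. In osteoclast-conditioned medium Ndc80 (12.7 ± 0.548), Spc25 (12.7 ± 0.622) and Spc24 (12.4 ± 0.0721) lay within their spread of each other, and Nuf2 stayed above them at 17.7 ± 0.395. These values divide by all exons annotated for a gene, so a gene with long rare isoforms is understated. The annotation used in counting is not given, and Bub3 had 0 counts though it shares 0 exon bases with another listed gene. The bases over which reads were counted may therefore differ from these exons, which was not tested.

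**Figure D5:**
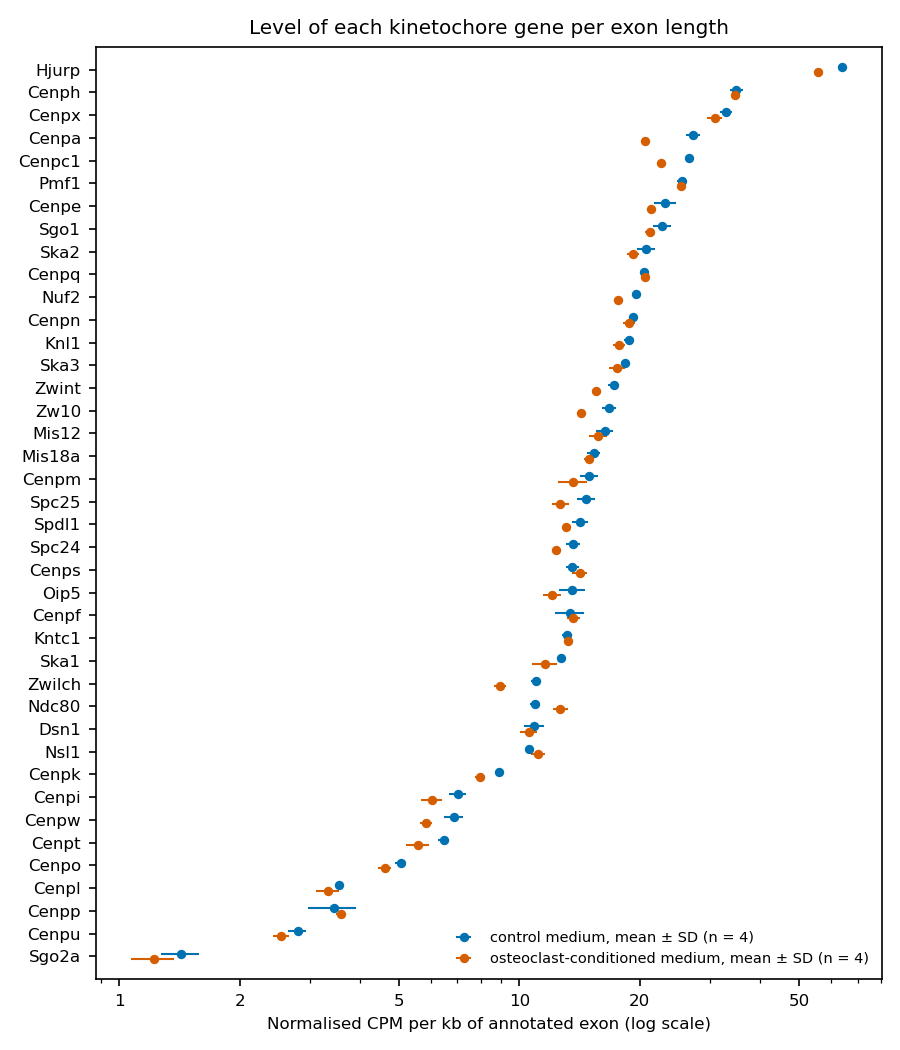
Normalised CPM per kb of annotated exon (log scale) of the 40 tested kinetochore genes, mean ± SD of 4 cultures, in control (blue) and osteoclast-conditioned (orange) medium, ordered by the control mean. Hjurp stands highest at 64.1 in control medium and Sgo2a lowest at 1.43, and Cenpa shows the widest gap between media on this scale.

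A short promoter element was looked for. Many late cell cycle genes carry a CHR (cell cycle genes homology region), with the core TTTGAA, near the start of transcription, where the MuvB complexes bind it. Promoter windows of 300 bases (250 before and 50 after each annotated start, RefSeq on GRCm38.p6) were found for 38 of the 42 genes, 43 windows in all. The core lay within 50 bases of the start, on either strand, in 13 of the 43 windows (30.2%), against 3.18% of the windows of tested genes and 4.94% of all windows. Anywhere in the window, CCAAT was found in 72.1% of the kinetochore windows, 38.1% of those of tested genes and 37.4% of all windows, searched on both strands. An E2F core (TTCCCGC on either strand, or the related TTGGCGC, or as variants TTCGCGC and likewise TTGCCGC) was found in 34.9% of the kinetochore windows, 16.9% of those of tested genes and 9.57% of all. The searched motifs can share bases: in the Cenpw and Kntc1 sites printed here, a CCAAT ends on the first base of the core. A match is only a description. The sites of 7 genes are printed below because genes with the same core near their start fell, did not pass or rose. Capitals mark the core, read on the strand of the gene, so that TTCAAA is the core on the opposite strand.
Cenpa: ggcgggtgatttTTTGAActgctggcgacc
Hjurp: tgcgtaaatactTTTGAAagaccctattag
Cenpw: tccggcggccaaTTCAAAtcgaccactcgg
Spc25: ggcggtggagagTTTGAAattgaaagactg
Kntc1: ttctcccgccaaTTCAAAtcagtggcaggg
Cenpf: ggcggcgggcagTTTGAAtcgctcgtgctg
Ndc80: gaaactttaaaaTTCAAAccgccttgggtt
They lie at chr5:30666890-30666919 (plus strand) for Cenpa, chr1:88277543-88277572 (minus) for Hjurp, chr10:30200548-30200577 (minus) for Cenpw, chr2:69206172-69206201 (minus) for Spc25, chr5:123749706-123749735 (plus) for Kntc1, chr1:189688067-189688096 (minus) for Cenpf and chr17:71526811-71526840 (minus) for Ndc80. Cenpa, Hjurp, Cenpw and Spc25 fell, Kntc1 and Cenpf did not pass, and Ndc80 rose. Of the 12 tested genes with the core near the start, 7 fell and 1 rose, with a median log2 fold change of -0.10. Of the 24 tested genes with a window but no such core, 11 fell and 0 rose, with a median of -0.11.

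Other genes that act at the kinetochore were taken from lists of 40 genes outside the 42, of which 39 were tested, 18 fell and 5 rose, against 14.8% lower and 15.7% higher among all tested genes. The number that rose was 3 with DESeq2, with total counts only and with upper quartile scaling. It was also 3 without control replicate 1 or 4 and without osteoclast-conditioned replicate 1, 2 or 3. Of 8 spindle checkpoint genes, 5 fell and 0 rose, with Bub1b (log2 fold change -0.21) and Bub1 (-0.20), the checkpoint kinases, changed most. In the chromosomal passenger complex and error correction list, 6 of 7 tested genes fell, led by Kif2c (-0.23), a microtubule-depolymerising kinesin, and Plk1 (-0.20), a mitotic kinase. Cenpv (-0.26) fell, and Itgb3bp, which encodes CENP-R, did not pass (-0.03, SE 0.06). Of 13 cohesin and condensin genes, 3 fell and 1 rose, with Ncapg (-0.20) and Ncaph2 (-0.15), condensin subunits, changed most. The list of microtubule and dynein partners moved both ways, with 2 of 8 lower and 4 higher. Dync1h1, the dynein heavy chain, rose (log2 fold change 0.60, SE 0.04), from 301 ± 19.5 to 455 ± 20.5 normalised CPM (SD, n = 4 each, edgeR adjusted p = 1.57e-07), and Kif18a, a kinesin that limits chromosome movement, fell (log2 fold change -0.22).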

How the data were processed

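RNA was extracted with an RNeasy Plus Mini kit and libraries were made with SureSelect HS2, per the labels' protocols. The authors deposited 1 count table, unnormalised, with a row for each Ensembl gene and a column for each of 8 cultures. STAR 2.7.5a, featureCounts 2.0.1 and the build mm10 are named in the submitters' processing notes. The annotation, and whether counting used strand or molecular barcodes, are not given in the sources used here. Each column header is a number that stands as the description of 1 sample.

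Symbols, positions and exon lengths came from GENCODE M21 (GRCm38), in which 21817 of 21859 IDs matched. Genes passing filterByExpr were scaled by TMM and tested with edgeR 4.0.16 in R 4.3.3 (glmQLFit with robust estimation, glmQLFTest), with medium as the term and Benjamini-Hochberg adjustment over all genes tested. Standard errors are the absolute log2 change divided by the square root of F. Alternatives were other scalings, filters and thresholds, DESeq2 1.42.0, limma-voom (limma 3.58.1), a replicate block, each culture left out and genes without shared exons. On simulated counts (10667 genes), the fit called 34.0% of the 1.1-fold, 67.3% of the 1.2-fold and 91.8% of the 1.5-fold changes, and 7.74% of its calls were false. In this simulation 50 genes were changed 1.1-fold and 49 at each of the folds 1.2, 1.5 and 2. That is far fewer than the 30.5% of genes called in the data, so these shares need not carry over.

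The genes, complexes and lists were chosen with earlier results of these data known. Values per culture are given for Cenpa, Cenpb, the called gene of smallest p in each complex and the 5 largest called changes. In the other lists up to 2 called genes with the largest change are named. Lists of B-lineage, T-lineage, macrophage and osteoclast, G1/S and G2/M genes served as markers. Some genes of these lists are not reported here.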

Additional observations from a re-analysis of the deposited data

Results flagged for a closer look

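In each medium, the highest or lowest culture was compared with the other 3 by the gap to its nearest neighbour over the whole range, for the 40 tested genes and their summed level. Of 82 groups, 2 were above the 95% critical value of Dixon's test, where chance gives about 4.1. Cenpp was lowest in osteoclast-conditioned replicate 4, at 8.81 normalised CPM against 9.26 to 9.34 (ratio 0.842). Spc24 was lowest in control replicate 4, at 33.01 normalised CPM against 35.6 to 35.9 (ratio 0.891). Cenpp was not called, and the call of Spc24 was lost in 5 of 16 alternatives.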

How the results depend on the processing

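The number of kinetochore genes called lower (20) became 13 with DESeq2 and 12 at an adjusted p under 0.01, and ranged from 13 to 17 when 1 culture was left out. The number called higher (1) ranged from 1 to 2 when 1 culture was left out, with Nsl1 added without osteoclast-conditioned replicate 4. Among genes without exons shared with another listed gene (29), 15 were lower and 1 higher. Of the 21 called genes, 13 kept their call and direction in each of 16 alternatives and 8 lost it in at least 1, and no called gene changed sign. Of the 19 others, 4 gained a call at least once. Among the other kinetochore-associated genes, the 5 called higher became 3 with total counts only, 3 with upper quartile scaling, 3 with DESeq2, 3 at an adjusted p under 0.01, and from 3 to 5 when 1 culture was left out. The difference in summed level, -239 normalised CPM, was -282 with total counts only and -253 to -221 when 1 culture was left out. Signs changed only among genes not called. With total counts only, Cenpq was -0.00892 and Kntc1 -0.0112 on the log2 scale. When 1 culture was left out, Cenph ranged from -0.0243 to 0.0135, Cenpp from -0.0147 to 0.132, Pmf1 from -0.0190 to 0.0102, Kntc1 from -0.0120 to 0.0250 and Cenpf from -0.0175 to 0.0747. What causes these shifts was not tested. With the replicate block 19 kinetochore genes were lower and 1 higher, and the call lost was that of Ska2 (adjusted p = 0.0514). Deviations of same-numbered cultures correlated from -0.0507 to 0.143, with a mean of 0.0372 against -0.0127 for cultures of different numbers. The labels do not say whether same-numbered cultures were handled together. Scaling by total counts moved the median of all genes from -0.01 to -0.03, and its split of all calls was 18.8% lower and 12.9% higher. Genes that did not pass may still differ by amounts too small for this depth and number of cultures.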
